A study of Mus musculus with 10 samples.

Results

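A set of 10 genes that mark the lining cells of blood and lymphatic vessels were followed in mouse T cell lymphomas. They were taken by symbol, and the probe set of highest mean stands for each gene. All 10 were measured, each by 1 probe set, among 19937 genes with a probe set of a single symbol. Of these, 7 are used for blood vessels or for vessels in general, namely Pecam1, Cdh5, Esam, Kdr, Flt1, Tek and Vwf, and 3 are used for lymphatic vessels, namely Lyve1, Prox1 and Flt4.

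The tissue was primary mediastinal lymphoma that arose at 4 to 5 months of age in 10 mice on a c57BL/6 background, with 1 microarray per mouse. One group was NPM-ALK transgenic and WASP-deficient (labelled WASP -/-, 5 mice). The other was NPM-ALK transgenic with intact WASP (labelled WT, 5 mice), so both groups carried the oncogene and no array holds normal tissue. NPM-ALK is a fusion kinase of anaplastic large cell lymphoma, and WASP, encoded by Was, drives branched actin assembly in blood cells. The promoter of the transgene is not given in the sources used here, and the WASP-deficient animals were described as of either sex. The comparison asked which transcripts of the tumour differ when WASP is missing.

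Endothelial cells hold together through VE-cadherin (Cdh5) and PECAM1, and they sense growth factors of the VEGF family through the kinases encoded by Flt1, Kdr and Flt4. Lymphatic endothelium is specified by the transcription factor Prox1 and grows in response to VEGF-C acting on Flt4. It carries the hyaluronan receptor LYVE1, which is also found on some tissue macrophages. PECAM1 is also carried by leukocytes and platelets, von Willebrand factor (Vwf) is also made by megakaryocytes, and Flt1 is also expressed by monocytes.

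Values are log2 of the deposited intensities, and differences are WASP-deficient minus WASP-intact on that log2 scale. In whole tumour RNA, fewer endothelial cells and less RNA per endothelial cell cannot be told apart. Was averaged 8.08 ± 0.13 in WASP-deficient and 9.22 ± 0.10 in WASP-intact lymphomas (SD, n = 5 each), and it was the single gene of 12670 tested that passed limma at an adjusted p under 0.05. Of the T cell genes, Cd3e and Thy1 lay between 12.06 and 12.59 and between 11.86 and 12.31 over the 10 arrays, while Cd3g ran from 6.29 to 12.23, Cd3d from 5.26 to 10.08 and Cd8a from 6.38 to 10.42. The adhesion receptor gene Cd2 was at 11.52 on WASP-deficient array 1 and at 11.18 and 11.30 on WASP-intact arrays 4 and 5, against 6.10 to 6.90 on the other 7. These sets of arrays are called Cd2-high (log2 of 9 or more) and Cd2-low. They were read off the expression values rather than the labels, so values over them are a description with no test. WASP-intact array 4 also held skeletal muscle RNA, with the actin gene Acta1 at 11.59 against 6.92 to 7.19 on the other 9. Xist was high on 0 of 5 WASP-deficient and 4 of 5 WASP-intact arrays, and this RNA, which female cells make, thus ran largely with genotype. By Xist no WASP-deficient array read as female, although that group was described as of either sex. Sex and genotype thus largely cannot be told apart here. Differences with the Xist level as a covariate, given below, rest largely on the 1 WASP-intact array where Xist was low.

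No endothelial gene passed the test of genotype. Over all genes 0.00789% passed. Of the 10 endothelial genes, 7 had a mean above the filter on dim probe sets (log2 6.35) and were tested with all other genes, and 0 of the 7 passed. Tek, Prox1 and Flt4 were below the filter and took their values from a limma fit of all 19937 genes without it, where 0 of the 3 passed. At an unadjusted p under 0.05, where 2.89% of all genes above the filter stood, there were 4 of the 10, Lyve1, Kdr, Flt4 and Tek, 2 of them (Lyve1 and Kdr) among the 7 above the filter. In the fit without the filter, which gave Flt4 and Tek, 646 of 19937 genes stood at that p. All 4 endothelial genes had lower values in WASP-deficient lymphomas, and of all genes above the filter 1.33% were at that p with lower values. The median difference was -0.17 over the 10 genes, against -0.004 over all genes above the filter.

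**Figure D1:**
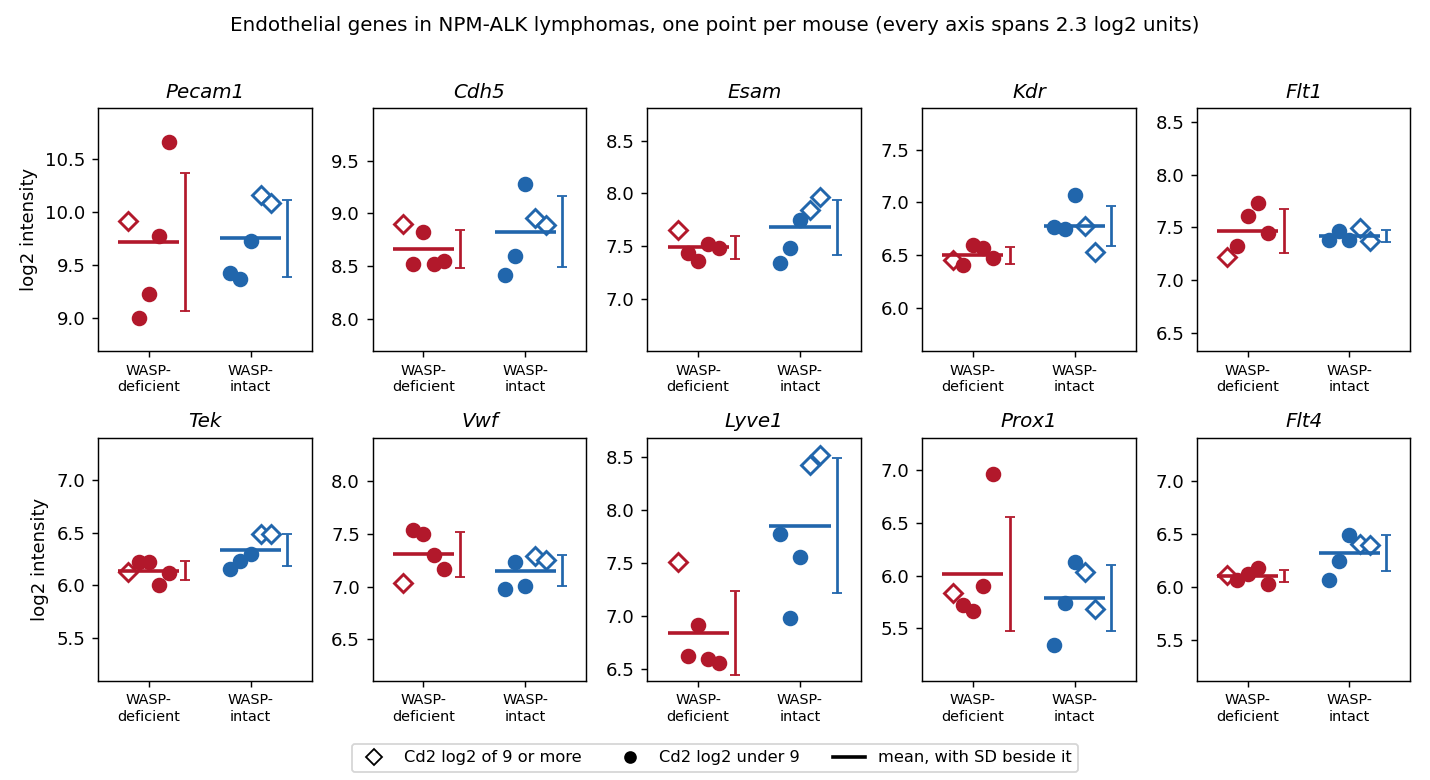
Log2 intensity of the 10 endothelial genes on each array, WASP-deficient (red, left) and WASP-intact (blue, right), with the mean as a line and the SD as a bar (n = 5 each); open diamonds are the 3 Cd2-high arrays. Lyve1 has the widest gap between the genotypes, 6.84 against 7.85 on average, and Prox1 has 1 high point, 6.96 on WASP-deficient array 5.

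Lyve1, the hyaluronan receptor gene, had the largest genotype difference of the 10. It was at 7.504, 6.62, 6.91, 6.59 and 6.55 on WASP-deficient arrays 1 to 5. WASP-intact arrays 1 to 5 had it at 7.78, 6.98, 7.56, 8.43 and 8.52. The values of 4 of 5 WASP-deficient arrays lay below every WASP-intact array, and WASP-deficient array 1 lay among the WASP-intact ones. The difference was -1.02 (SE 0.30, 95% interval -1.69 to -0.34, limma adjusted p = 0.999), or 0.495 of the WASP-intact level on the linear scale. An absolute difference of 1 or more was seen for 0.568% of all genes. It was -0.76 (SE 0.50) with the Xist level as a covariate and -0.77 (SE 0.19) within the Cd2-low arrays, and neither passed (limma adjusted p = 1 and 0.999).

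The Lyve1 order of genotypes was the same in both Cd2 sets. Among Cd2-low arrays Lyve1 was at 6.55 to 6.91 in 4 WASP-deficient lymphomas and at 6.98 to 7.78 in 3 WASP-intact ones. Among Cd2-high arrays it was at 7.504 in the WASP-deficient lymphoma and at 8.43 and 8.52 in the WASP-intact ones. With 1 array against 2, the same order held there for all of the 10 genes but Cdh5 and Prox1. The share over all genes was not taken for the Cd2-high set. Genotypes did not overlap within the Cd2-low arrays for 4.06% of all genes and for 2 of the 10 endothelial genes, Lyve1 and Kdr. Both were lower in WASP-deficient lymphomas there, as were 2.15% of all genes.

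Prox1, the transcription factor that sets lymphatic identity, had another order of arrays than Lyve1. It was at 5.84, 5.72, 5.66, 5.90 and 6.96 on WASP-deficient arrays 1 to 5. Its level was, on WASP-intact arrays 1 to 5, 5.34, 5.74, 6.13, 6.04 and 5.69. The genotypes overlapped, and WASP-deficient array 5 stood above the other 9, although its Lyve1 level, 6.55, was the lowest of the 10. The Prox1 difference was 0.23 (SE 0.25, 95% interval -0.32 to 0.78, limma adjusted p = 0.999 over 19937 genes), and it was -0.007 without WASP-deficient array 5 and 0.12 without WASP-intact array 1. With the Xist level as a covariate it was -0.05. All Prox1 values but that one were below the filter.

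The same WASP-deficient array 5 had the highest Pecam1 level, 10.66, and the highest levels of some platelet genes, though not of all. Itgb3, which encodes integrin beta 3 of platelets and endothelium, was at 7.66 there and at 6.53 to 6.76 on the other 9. Pf4, the platelet factor gene, was at 8.81, against 7.14 to 8.64 on the others. Of 7 platelet genes measured 6 were above the filter, and the mean level of the 7 ran from 6.64 to 7.23 on WASP-deficient and from 6.61 to 6.68 on WASP-intact arrays. Gp5 and Itga2b, also platelet genes, were highest on WASP-deficient array 5 as well, at 6.93 and 6.92. Ppbp, another platelet gene, was highest on WASP-deficient array 3, at 7.58. Treml1 and Gp9 were highest there too, at 7.19 and 6.50, against 6.93 and 6.40 on WASP-deficient array 5. Pf4, at 8.64, and Itgb3, at 6.58, were lower on WASP-deficient array 3 than on WASP-deficient array 5. Prox1 on WASP-deficient array 3 was the lowest of its genotype, at 5.66, and Pecam1 was at 9.22. The part of platelet RNA in the Prox1 and Pecam1 values was not tested.

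Flt4, the receptor gene for VEGF-C on lymphatic endothelium, completes the lymphatic group. It was at 6.11, 6.07, 6.13, 6.18 and 6.03 on WASP-deficient arrays 1 to 5. On WASP-intact arrays 1 to 5 it was at 6.06, 6.25, 6.50, 6.41 and 6.40. There were 4 WASP-intact arrays above all WASP-deficient ones and WASP-intact array 1 lay among them, but the mean of each genotype was below the filter. The difference was -0.22 (SE 0.09, 95% interval -0.41 to -0.02, limma adjusted p = 0.999 over 19937 genes), and with the Xist level as a covariate it was -0.36 (SE 0.14).

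The 3 lymphatic genes were highest on different arrays, Lyve1 on WASP-intact array 5, Prox1 on WASP-deficient array 5 and Flt4 on WASP-intact array 3. The root mean square difference between levels centred on each gene's mean was 0.908 between Lyve1 and Prox1, 0.607 between Lyve1 and Flt4 and 0.442 between Prox1 and Flt4 (10 arrays). For Flt4 and the 7 other genes it ran from 0.113 with Tek to 0.470 with Pecam1. This measure grows with the spread of both genes. A gene with the same level on every array would stand at 0.697 from Lyve1, 0.409 from Prox1 and 0.472 from Pecam1. Flt4 was thus no closer to Prox1 than such a gene would be. As a mean of centred levels, the lymphatic genes stood at -0.17 ± 0.17 in WASP-deficient and 0.17 ± 0.28 in WASP-intact lymphomas (SD, n = 5 each). The 7 other genes stood at -0.05 ± 0.07 in WASP-deficient and 0.05 ± 0.16 in WASP-intact lymphomas. Without Lyve1 the lymphatic means were 0.003 ± 0.25 in WASP-deficient and -0.003 ± 0.24 in WASP-intact lymphomas. The means without Lyve1 join opposite differences, -0.22 for Flt4 and 0.23 for Prox1, and WASP-deficient array 5 stood at 0.44 in them, against -0.16 to -0.02 on the other 4 WASP-deficient arrays.

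The 3 VEGF receptor genes are the closest relatives among the 10, so their promoters (250 bases before to 50 after the start, RefSeq, GRCm38.p6) are shown. Capitals mark the ETS core (GGAA or its reverse complement), the cyclic AMP response element TGACGTCA and the TATA box (TATAAA or its reverse complement), each searched on both strands. Of these matches 0 overlapped another.
Kdr, chr5:75978406-75978705, minus strand: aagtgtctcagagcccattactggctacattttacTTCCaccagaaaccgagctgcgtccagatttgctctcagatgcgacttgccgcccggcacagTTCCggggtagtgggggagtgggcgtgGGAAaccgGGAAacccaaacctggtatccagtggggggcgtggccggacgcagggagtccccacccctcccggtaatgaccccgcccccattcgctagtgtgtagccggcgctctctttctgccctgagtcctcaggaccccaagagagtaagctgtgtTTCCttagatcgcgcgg
Flt1, chr5:147725962-147726261, minus strand: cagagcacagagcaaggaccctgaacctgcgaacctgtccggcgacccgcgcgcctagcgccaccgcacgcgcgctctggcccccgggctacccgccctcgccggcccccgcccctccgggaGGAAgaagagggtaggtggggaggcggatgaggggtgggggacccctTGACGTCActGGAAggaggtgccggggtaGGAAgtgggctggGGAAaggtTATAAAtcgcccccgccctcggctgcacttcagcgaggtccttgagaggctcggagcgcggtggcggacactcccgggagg
Flt4, chr11:49609429-49609728, plus strand: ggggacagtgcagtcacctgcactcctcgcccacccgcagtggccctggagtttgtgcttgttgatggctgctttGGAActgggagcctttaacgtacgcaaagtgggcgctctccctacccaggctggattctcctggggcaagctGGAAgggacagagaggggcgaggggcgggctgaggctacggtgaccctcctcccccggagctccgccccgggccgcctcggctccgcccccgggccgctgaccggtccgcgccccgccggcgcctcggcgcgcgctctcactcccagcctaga
The Kdr window held 5 ETS cores, the Flt1 window 4 and the Flt4 window 2. Of 32544 promoter windows of the same length, 96% held at least 1 core, 46.3% at least 4 and 28.6% at least 5. The Flt1 window alone of the 3 held the response element and the TATA box, which were found in 1.8% and 13.6% of all windows. These matches describe letters and were not tested against the expression values. Promoter entries were also matched for Tek and Prox1.

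Kdr encodes VEGFR2, the main signalling receptor for VEGF-A on blood endothelium. It was at 6.45, 6.41, 6.60, 6.56 and 6.47 on WASP-deficient arrays 1 to 5. WASP-intact arrays 1 to 5 had it at 6.77, 6.74, 7.07, 6.78 and 6.53. There were 4 WASP-intact arrays above all WASP-deficient ones, and WASP-intact array 5 lay among them. The difference was -0.28 (SE 0.10, 95% interval -0.50 to -0.06, limma adjusted p = 0.999), and with the Xist level as a covariate it was -0.53 (SE 0.13, limma adjusted p = 1).

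Flt1 encodes VEGFR1, which binds VEGF-A tightly and signals weakly. It was at 7.22, 7.32, 7.61, 7.74 and 7.45 on WASP-deficient arrays 1 to 5. Its level was, on WASP-intact arrays 1 to 5, 7.38, 7.46, 7.38, 7.497 and 7.37. The WASP-intact values lay inside the range of the WASP-deficient ones. The difference was 0.05 (SE 0.10, 95% interval -0.18 to 0.28, limma adjusted p = 0.999), and without WASP-deficient array 4 it was -0.02.

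Tek encodes TIE2, the receptor for the angiopoietins that steady mature vessels. It was at 6.13, 6.22, 6.22, 6.00 and 6.12 on WASP-deficient arrays 1 to 5. On WASP-intact arrays 1 to 5 it was at 6.15, 6.23, 6.30, 6.49 and 6.48. Apart from 6.15 on WASP-intact array 1, every WASP-intact value exceeded the WASP-deficient maximum of 6.22. The 2 highest values were those of WASP-intact arrays 4 and 5. The difference was -0.19 (SE 0.09, 95% interval -0.39 to -0.001, limma adjusted p = 0.999 over 19937 genes), and within the Cd2-low arrays, which leave out those 2, it was -0.09 (SE 0.10). With array weights it was -0.12.

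Among the junction genes, Cdh5 encodes the cadherin that defines endothelial contacts. It was at 8.90, 8.52, 8.83, 8.52 and 8.55 on WASP-deficient arrays 1 to 5. WASP-intact arrays 1 to 5 had it at 8.41, 8.60, 9.28, 8.96 and 8.89. WASP-intact arrays 1 and 3 held the lowest and the highest value of the 10, so the spread within that genotype was wider than the gap between genotypes. The difference was -0.16 (SE 0.16, 95% interval -0.52 to 0.19, limma adjusted p = 0.999), and no alternative turned its sign. It was -0.54 (SE 0.22) with the Xist level as a covariate, -0.06 with array weights, -0.27 without WASP-intact array 1 and -0.05 without WASP-intact array 3.

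Esam encodes an immunoglobulin family adhesion molecule of endothelial junctions and platelets. It was at 7.66, 7.44, 7.36, 7.52 and 7.48 on WASP-deficient arrays 1 to 5. Its level was, on WASP-intact arrays 1 to 5, 7.34, 7.49, 7.75, 7.84 and 7.97. The genotypes overlapped, with a difference of -0.18 (SE 0.12, 95% interval -0.46 to 0.09, limma adjusted p = 0.999). It was -0.08 (SE 0.12) within the Cd2-low arrays, -0.03 with array weights and -0.11 without WASP-intact array 5.

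Pecam1 encodes CD31, an adhesion molecule of endothelium, platelets and leukocytes. It was at 9.91, 9.001, 9.22, 9.77 and 10.66 on WASP-deficient arrays 1 to 5. On WASP-intact arrays 1 to 5 it was at 9.43, 9.37, 9.72, 10.16 and 10.08. The lowest and the highest value were both WASP-deficient. The difference was -0.04 (SE 0.30, 95% interval -0.70 to 0.63, limma adjusted p = 0.999), and its sign turned under several alternatives.

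Vwf encodes the clotting protein that endothelium stores and secretes. It was at 7.04, 7.54, 7.49, 7.30 and 7.16 on WASP-deficient arrays 1 to 5. WASP-intact arrays 1 to 5 had it at 6.98, 7.23, 7.004, 7.29 and 7.26. The genotypes overlapped, with a difference of 0.16 (SE 0.12, 95% interval -0.10 to 0.41, limma adjusted p = 0.999). It was 0.30 (SE 0.13) within the Cd2-low arrays, 0.32 (SE 0.19) with the Xist level as a covariate and 0.10 without WASP-deficient array 2. An adjusted p above the threshold does not show that any of these genes was alike in the 2 genotypes, and the intervals bound the differences that 5 mice per genotype could miss.

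**Figure D2:**
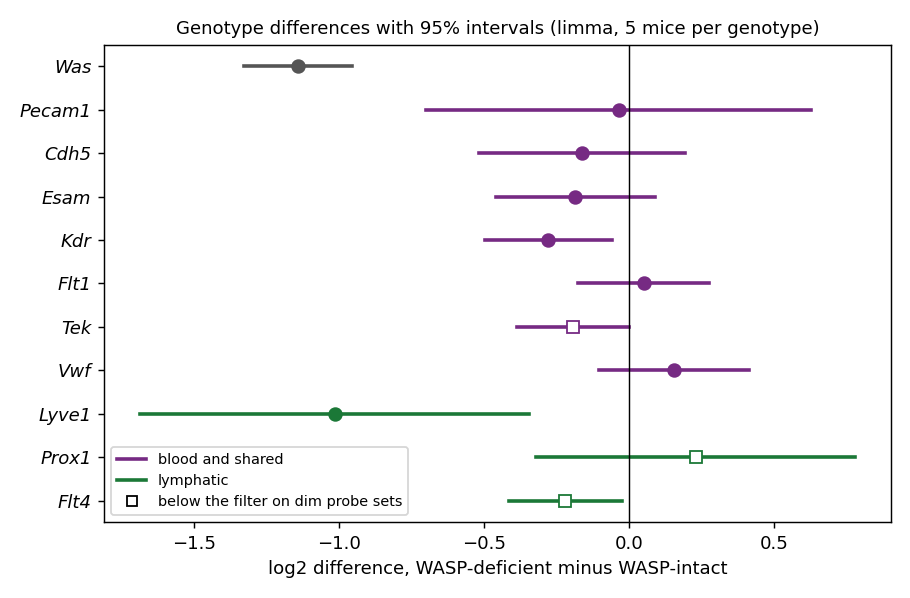
Log2 difference (WASP-deficient minus WASP-intact) of Was and the 10 endothelial genes, with 95% intervals from limma; open squares mark the 3 genes below the filter. Was lies at -1.14 with a short interval, Lyve1 at -1.02 with a long one, and the other 9 endothelial genes lie between -0.28 and 0.23.

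None of the 10 endothelial genes separated the Cd2-high from the Cd2-low lymphomas. Of all genes above the filter, 30.5% had no overlap between the 3 Cd2-high and the 7 Cd2-low arrays, against 0 of the 10 and 0 of the 7 above the filter. A gap of 1 or more between the means was found for 7.43% of all genes above the filter and for 1 of the 7 members there. This was Lyve1, also the only 1 of the 10, at 7.504 to 8.52 on Cd2-high and 6.55 to 7.78 on Cd2-low arrays. The gap was 0.45 for Pecam1, 0.34 for Esam and 0.24 for Cdh5, and it lay between -0.11 and 0.19 for the other 6. The median absolute gap was 0.161 over the 10 genes, against 0.203 over all genes above the filter.

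Prox1 and Flt4 showed no Cd2 gap of the size seen for Lyve1. Prox1 was at 5.69 to 6.04 on Cd2-high and 5.34 to 6.96 on Cd2-low arrays, and Flt4 at 6.11 to 6.41 on Cd2-high and 6.03 to 6.50 on Cd2-low arrays. The mean centred level of the 3 lymphatic genes ran from -0.002 to 0.47 on Cd2-high and from -0.35 to 0.24 on Cd2-low arrays. That of the 7 other genes ran from -0.04 to 0.20 on Cd2-high and from -0.16 to 0.13 on Cd2-low arrays.

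Other blood endothelial genes were read from a list of 29, of which 28 were measured and 23 were above the filter. In the genotype comparison 0 of the 23 passed, with 7 higher and 16 lower values and a median difference of -0.06. Of the 23, 4 did not overlap between the Cd2 sets, a smaller share than the 30.5% of all genes. Esm1, which encodes the secreted proteoglycan endocan of activated endothelium, was at 9.73, 10.27 and 10.33 on the Cd2-high arrays and at 6.26 to 7.10 on the Cd2-low ones. The other 3 were lower on Cd2-high arrays. Eng, a TGF-beta co-receptor gene, was at 8.37 to 8.54 against 8.68 to 9.28, Egfl7, which encodes a secreted vessel protein, at 8.04 to 8.35 against 8.57 to 8.95, and Plvap, a gene of capillary diaphragms, at 7.88 to 8.11 against 8.14 to 8.55. Aplnr, the apelin receptor gene, had the second largest gap, 0.69, and its arrays overlapped.

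Other lymphatic genes were read from a list as well. Of 14 listed, 13 were measured and 7 were above the filter, 0 of them passed between genotypes (3 higher and 4 lower values), and 0 of the 7 separated the Cd2 sets. Below the filter 2 did, Sema3d and Reln, both higher on Cd2-high arrays. Of all genes above the filter 30.5% did not overlap, and the share of those below it was not taken. Reln, the reelin gene, was at 6.14 to 6.498 on Cd2-high and 5.73 to 6.07 on Cd2-low arrays. Sema3d was at 5.91 to 6.48 on Cd2-high and 5.27 to 5.67 on Cd2-low arrays. Mmrn1, which encodes a multimerin of lymphatic endothelium and platelets, was at 4.45 to 6.18 on Cd2-high and 4.10 to 4.97 on Cd2-low arrays, its top value being that of WASP-intact array 4. Pdpn, the podoplanin gene, which stromal cells express too, was at 7.77 to 8.28 on Cd2-high and 7.25 to 7.91 on Cd2-low arrays. All 5 genes of high endothelial venules, the vessels by which lymphocytes enter lymph nodes, were below the filter, and their largest Cd2 gaps were 0.27 for Glycam1, 0.16 for Ackr1 and 0.10 for Fut7.

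Genes of the growth factors that bind these receptors had Cd2 gaps of both signs. Of 10 ligand and co-receptor genes 6 were above the filter, 0 passed between genotypes, and 4 of the 6 did not overlap between the Cd2 sets, where 30.5% of all genes did not. Vegfc, the ligand of the Flt4 receptor, was at 7.18, 7.69 and 7.79 on Cd2-high arrays and at 5.77 to 6.26 on Cd2-low ones. Nrp1, a co-receptor gene that T cells can also express, was at 10.35 to 11.04 on Cd2-high and 8.75 to 10.31 on Cd2-low arrays. Vegfa, the main ligand of the Kdr receptor, was at 7.87 to 8.34 on Cd2-high and 8.71 to 10.11 on Cd2-low arrays. Vegfb was at 8.99 to 9.16 on Cd2-high and 9.17 to 9.46 on Cd2-low arrays. The receptor genes themselves overlapped between the sets, Flt4 as given above, Kdr at 6.45 to 6.78 on Cd2-high and 6.41 to 7.07 on Cd2-low arrays, and Flt1 at 7.22 to 7.497 on Cd2-high and 7.32 to 7.74 on Cd2-low arrays.

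**Figure D3:**
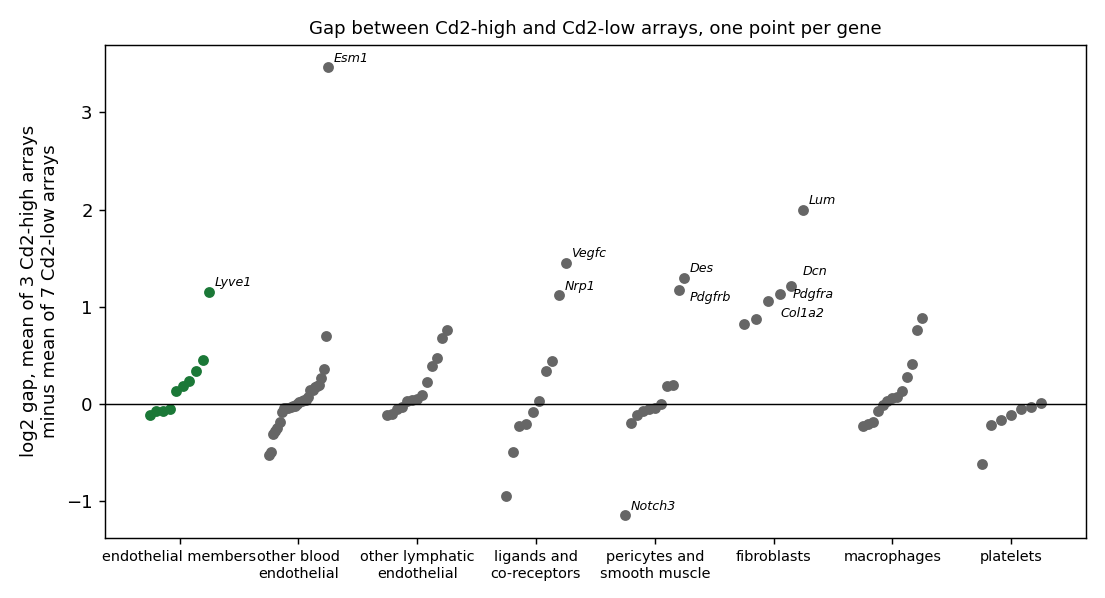
Log2 gap between the mean of the 3 Cd2-high and the mean of the 7 Cd2-low arrays, 1 point per measured gene of each list, with genes named where the gap is 1 or more in size. Among the endothelial members only Lyve1 passes 1, while Esm1 lies at 3.47, Vegfc at 1.45 and Notch3 at -1.15.

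Genes of pericytes and smooth muscle, which wrap vessels, were mixed. All 11 were above the filter and 0 passed between genotypes. Only 1 of the 11 separated the Cd2 sets, a smaller share than the 30.5% of all genes. It was the Notch receptor gene Notch3, at 8.85 to 9.03 on Cd2-high and 9.42 to 10.40 on Cd2-low arrays. Pdgfrb, the pericyte growth factor receptor gene, was at 9.54 to 10.31 on Cd2-high and 8.20 to 9.79 on Cd2-low arrays. Des, the desmin gene, was at 10.24 on WASP-intact array 4 and at 6.27 to 6.66 on the other 9.

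Among genes that vary about as much as Lyve1, those closest to it in array pattern were stromal matrix genes. Among 1239 genes above the filter with a comparable spread, the smallest root mean square differences over 10 arrays were 0.269 for Col1a2, 0.291 for Col3a1 and 0.292 for Dcn, which encode fibrillar collagen chains and the proteoglycan decorin. Col1a2 was at 8.69, 7.97, 8.18, 7.76 and 8.23 on WASP-deficient arrays 1 to 5. On WASP-intact arrays 1 to 5 Col1a2 was at 8.45, 7.81, 8.69, 9.54 and 9.41. Both Col1a2 and Lyve1 were highest on WASP-intact arrays 4 and 5, and WASP-intact array 2 was the lowest of that genotype for both.

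Markers of other cells stood beside Lyve1 as follows. Of 6 fibroblast genes 5 were above the filter, and the mean level of the 6 ran from 7.24 to 8.57 on WASP-deficient and from 7.56 to 9.29 on WASP-intact arrays. Of 6 fat cell genes 5 were above the filter. All 6 together had means of 6.61 to 6.960 on WASP-deficient and 6.965 to 7.56 on WASP-intact arrays. At an unadjusted limma p under 0.05, where 2.89% of all genes stood, there were 4 of the 5 fat cell genes. All 5 were lower in WASP-deficient lymphomas. The root mean square difference of Lyve1 was 0.369 with Adipoq, the adiponectin gene, which did not overlap between the genotypes (5.45 to 6.35 in WASP-deficient and 6.60 to 7.56 in WASP-intact lymphomas; 0.568% of all genes did not overlap).

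Of 13 macrophage genes 10 were above the filter, and all 13 together had means of 7.90 to 8.42 on WASP-deficient and 7.91 to 8.28 on WASP-intact arrays. Folr2, a folate receptor gene of tissue-resident macrophages, lay at 0.288 from Lyve1, closer than Col3a1 and Dcn; its SD was 0.625 of that of Lyve1, which kept it out of the genes of comparable spread. It was at 7.83, 7.23, 7.47, 7.33 and 7.37 on WASP-deficient arrays 1 to 5. On WASP-intact arrays 1 to 5 it was at 7.79, 7.47, 7.92, 8.39 and 8.59. Of the 10 macrophage genes above the filter, Folr2 alone was lower on average in WASP-deficient lymphomas, and the other 9 were higher. Mrc1, the mannose receptor gene of macrophages, lay far from Lyve1 at 0.909, above the 0.697 that a gene with the same level on every array would give. Cd163 lay at 0.744 and Timd4 at 0.644, both macrophage genes below the filter. Folr2, Mrc1, Cd163, Timd4 and Adipoq were set against Lyve1 after their values were seen. The part of stromal, fat or macrophage RNA in the Lyve1 values was not tested.

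**Figure D4:**
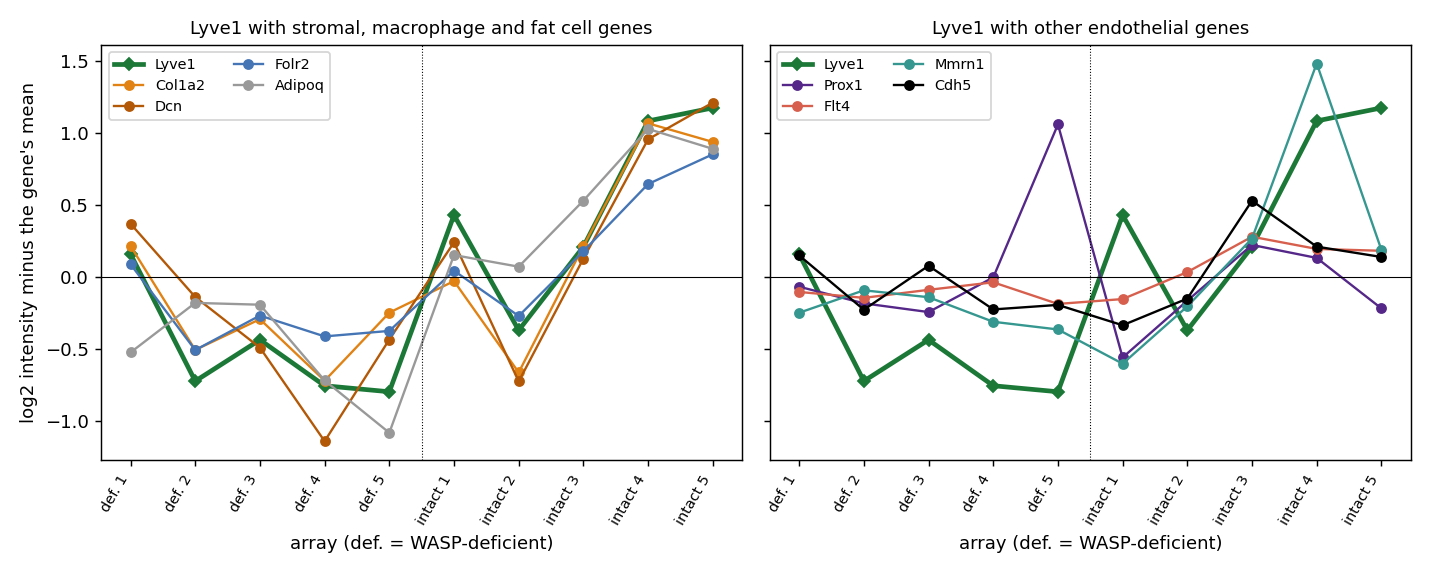
Log2 intensity minus each gene's own mean over the 10 arrays, WASP-deficient arrays left of the dotted line and WASP-intact arrays right of it. On the left panel Lyve1, Col1a2, Dcn, Folr2 and Adipoq are all highest on WASP-intact arrays 4 and 5, and on the right panel Flt4 and Cdh5 span a smaller range than Lyve1 and Prox1 has its top on WASP-deficient array 5, where Lyve1 is lowest.

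In none of the lists of other cells did a gene pass between the genotypes. Of the 5 fibroblast genes above the filter 3 did not overlap between the Cd2 sets, where 30.5% of all genes did not. Among fibroblast genes the largest Cd2 gaps were 1.997 for Lum (below the filter), 1.21 for Dcn and 1.13 for Pdgfra, all higher on Cd2-high arrays without overlap. Among macrophage genes they were 0.89 for Adgre1, 0.76 for Folr2 and 0.41 for Cd163, and for fat cells 0.67 for Adipoq, 0.63 for Cidec and 0.50 for Plin1. Platelet genes had gaps of -0.62 for Pf4, -0.22 for Ppbp and -0.17 for Itgb3. Of 8 muscle genes 6 were above the filter, with gaps of 1.602 for Acta1, 1.26 for Ckm and 0.86 for Tnni2, all highest on WASP-intact array 4. The mean level of the 8 ran from 6.52 to 6.70 on WASP-deficient and from 6.60 to 8.26 on WASP-intact arrays.

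Lung and thymic epithelial genes were read because the tumours were mediastinal. Of 5 lung genes 2 were above the filter, and the largest gaps of the 5 were -0.35 for Scgb1a1, 0.08 for Sftpd and 0.03 for Sftpa1. Of 5 thymic epithelial genes 4 were above the filter, with gaps of 0.55 for Epcam, -0.37 for Krt8 and -0.11 for Foxn1. The mean level of the 5 thymic genes ran from 7.12 to 8.03 on WASP-deficient and from 6.38 to 7.33 on WASP-intact arrays. At an unadjusted limma p under 0.05, where 2.89% of all genes stood, there were 3 of the 4. All 4 thymic genes above the filter were higher in WASP-deficient lymphomas. Their part in the endothelial values was not tested. Of 9 T cell genes 6 were measured, all above the filter, with gaps of -3.96 for Cd3g, -3.78 for Cd3d and 1.63 for Cd8a.

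For the other genes whose neighbours in pattern were sought, the nearest patterns were not vessel genes. The 3 nearest to Cdh5 were Gask1b (0.128), Mir455 (0.130) and Nmi (0.148) among 5361 candidates. The 3 nearest to Kdr were Arhgap15 (0.116), Trak1 (0.122) and Usp15 (0.129) among 6521. The 3 nearest to Flt4 were Zfp217 (0.070), Zfp524 (0.073) and Chrnb2 (0.089) among 6645. Cdh5, Kdr and Flt4 varied little, with SDs of 0.268, 0.201 and 0.167 over the 10 arrays, and many genes come close to a pattern of so small a spread.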

How the data were processed

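RNA of 10 primary lymphomas was measured on Affymetrix arrays, 5 WASP-deficient and 5 WASP-intact. The authors deposited 1 intensity per probe set, made with RMA per the submitters' processing notes. The software version, build and annotation are not stated in those sources. The intensities ran from 3.31 to 15588, a linear scale, and log2 was taken before any test. Array medians lay between 116.7 and 122.7. No pair of columns was identical, 0 columns of other samples were left unused, and the number of arrays limits the precision.

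Of 34760 probe sets, 21640 had 1 gene symbol in the platform's annotation, 1321 had several and 11799 were not named here. Symbols were checked by gene ID against RefSeq (GRCm38.p6, names only; 21553 matched, 0 changed). Probe sets with a mean under the 40th percentile (log2 6.35) were left out and the brightest kept per gene, which left 12670 genes. Genotypes were compared with limma 3.58.1 in R 4.3.3 (lmFit, eBayes, no covariate), with Benjamini-Hochberg adjustment over all genes and a threshold of 0.05, after a test on simulated data. Figures used matplotlib 3.10.9 in Python 3.11.15. Alternatives covered normalization, filter, probe set rule, variance model, array weights, the Xist level, the replicate number as a block, the Cd2-low arrays alone and each array left out.

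The members and lists were chosen with earlier results of these data known. Genes named are the 10 members, Was, Cd2, any list gene past the threshold, the 3 of largest Cd2 gap per list and the 3 nearest in pattern to Cdh5, Kdr, Lyve1 and Flt4. Lists of pericytes, macrophages, platelets, muscle, fat cells, fibroblasts, lung and thymic epithelium and T cells served as checks of other cells. Eng, Plvap, Vegfb, Thy1, Mrc1, Timd4, Reln, Cd3e, Gp5, Itga2b, Treml1, Gp9 and the genes that passed under an alternative were named after their values were seen.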

Additional observations from a re-analysis of the deposited data

Results flagged for a closer look

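Prox1 on WASP-deficient array 5, at 6.96, stood apart from the other 4 WASP-deficient arrays, which lay between 5.66 and 5.90. Its gap to the nearest of them was 0.815 of the range of the group, above the 95% critical value for 5 samples (Dixon's test). Was and the 10 endothelial genes were examined in both genotypes, which makes 22 groups, and 1 was found; chance gives about 1 in 20.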

How the results depend on the processing

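The count of endothelial genes that passed was 0 under all 19 alternatives run. Of 179 values of the 10 genes under alternatives, 170 kept their direction and none passed. The sign turned for Pecam1 with array weights (0.13) and on the Cd2-low arrays alone (0.16), and for Prox1 with the Xist level as a covariate (-0.051). Leaving out 1 array at a time gave -0.27 to 0.14 for Pecam1, -0.016 to 0.11 for Flt1, the lowest without WASP-deficient array 4, and -0.0069 to 0.32 for Prox1, the lowest without WASP-deficient array 5. Leaving out 1 array gave -1.23 to -0.85 for Lyve1, and its adjusted p over all alternatives was 0.659 to 1.

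Over all genes, 1 passed. With the Xist level as a covariate 0 passed, and 0 passed with a block for the replicate number (Was at -1.06 and -1.14, adjusted p = 0.376 and 0.136). On the Cd2-low arrays alone 2 passed, Was and Ybx3. Leaving out 1 array gave 1 to 4, with 4 without WASP-intact array 3 (Was, Xist, Uty and Kdm5d) and 2 without WASP-deficient array 1 (Was and Atp4a). Without WASP-intact array 3, Xist was at -6.78, and the Y chromosome genes Uty and Kdm5d were at 5.02 and 3.68. That array was the 1 WASP-intact array with low Xist, so without it Xist level and genotype coincided. The cause of these changes in the count was not tested. At the 60th percentile filter only Pecam1 and Cdh5 of the 10 were left, and each member had 1 probe set, so averaging probe sets left the members' differences as they were. For same-numbered arrays of the 2 genotypes, the correlation of their deviations across genes ran from -0.71 to 0.37. Of 10 arrays, 1 correlated best with its own number. Some numbers join a Cd2-high with a Cd2-low array, so this check cannot decide whether a number marks a pair. Tek, Prox1 and Flt4 lay below the filter, where low signal over background limits what can be read.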
